A study of Homo sapiens with 5 samples.

Results

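MYC and PVT1 are neighbouring genes on the long arm of human chromosome 8, and the stretch around them was examined for sites bound by ZBTB7A in the prostate cancer line VCaP. The locus was taken as positions 127800000 to 129200000 of hg19, 1.4 Mb, and a peak belonged to it when its summit lay inside. MYC spans 128.748 to 128.754 Mb and PVT1 128.807 to 129.113 Mb in that window, with gene limits rounded to the kb. The locus held 208 of the 196770 peaks deposited for the study: 9 of 37782 in CSS, 20 of 34120 in DHT and 179 of 124868 in FBS. VCaP is an established line with an active androgen receptor. CSS cells (2 libraries) received vehicle and DHT cells (2 libraries) received 10 nM of the androgen dihydrotestosterone, both for 4 hours in 5% hormone-depleted serum. FBS cells (1 library) grew in 10% full serum, and that they had no added hormone was read from their culture condition. No genetic change was made in any group, and the same antibody against ZBTB7A was used throughout. The authors gave 1 peak list per condition, which leaves no measure of replicate spread and no test between conditions. Every interval below is an exact 95% interval that covers counting error only. Peaks close together are not independent, so these intervals are too narrow for differences between cultures.

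MYC encodes a transcription factor that drives ribosome production, metabolism and entry into the cell cycle. PVT1 is a long noncoding RNA gene that lies just after MYC, is read in the same direction and hosts several microRNAs. Its promoter and body are known to take part in the control of MYC, which also depends on enhancers spread over a wide gene-poor stretch before it. ZBTB7A, also called LRF or Pokemon, is a zinc finger factor that binds DNA and mostly represses transcription. In the RefSeq gene order of GRCh38, CASC11 comes directly before MYC, and POU5F1B, CCAT2, CASC8, CASC21, CCAT1 and CASC19 lie farther before it. MIR1204, MIR1205, MIR1206 and MIR1207 lie within PVT1, and MIR1208 after it. Only MYC and PVT1 were placed on hg19, so no peak was assigned to the other genes.

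The lists carried more information on depth than their peak numbers. Each peak's fold enrichment and p-value together gave back a whole number of fragments stacked at the summit and the number expected there from local background, for 100% of peaks in each list within 0.001 of the deposited −log10 p. A fragment is a sequenced read extended to the fragment length that the caller used, and fold enrichment is the summit number over the expected number, each plus 1. The expected number was never below a genome background, which for CSS came to 0.255 fragments per position, for DHT to 0.192 and for FBS to 1.29. FBS coverage of the background was thus 5.07 times that of CSS and 6.74 times that of DHT, and DHT had 0.752 times that of CSS. Where the expected number was above the genome background, it was a whole number of fragments in a 10 kb window, for 100% of such peaks within 0.02 of a fragment.

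The FBS list had many ZBTB7A peaks around MYC and PVT1, while the CSS list had few. These counts are not corrected for coverage, and FBS had 5.07 times the background of CSS and 6.74 times that of DHT. With fragments scaled to the DHT coverage by value alone, the locus kept 14 of 2462 FBS, 20 of 34120 DHT and 9 of 36616 CSS peaks. Densities below are those of the full lists. The locus held 127.9 peaks per Mb in FBS, against 71.0 over the rest of 8q, 25.0 on 8p and 40.1 over chromosomes 1 to 22, X and Y. In CSS it held 6.43 peaks per Mb, against 12.1 over the rest of 8q and 11.9 over those chromosomes. The DHT value was 14.3 per Mb, against 10.8 both over the rest of 8q and over those chromosomes. The locus was thus dense in FBS and sparse in CSS. Its DHT value was somewhat above its surroundings but rests on 20 peaks, and 71.6% of 2085 windows of the same length held fewer DHT peaks.

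Since the lists differ in length, the share of each list in the locus was compared. The locus took up 0.0238% (0.0109 to 0.0452%) of the CSS list, 0.0586% (0.0358 to 0.0905%) of the DHT list and 0.143% (0.123 to 0.166%) of the FBS list. The FBS share was 6.02 times the CSS share (3.10 to 13.4), while the same ratio was 1.77 (1.66 to 1.88) over the rest of 8q and 0.729 (0.653 to 0.815) on 8p. Relative to the rest of 8q, the FBS to CSS ratio of the locus was 3.40 (1.75 to 7.56). The FBS share was 2.45 times the DHT share (1.54 to 4.10), and relative to the rest of 8q this ratio was 1.36 (0.854 to 2.28), an interval that includes 1. The DHT share was 2.46 times the CSS share (1.07 to 6.14), against 0.984 (0.905 to 1.07) over the rest of 8q. That last ratio rests on 20 and 9 peaks. With peaks of a −log10 q of at least 5 only (q is the caller's p-value adjusted for multiple testing), it was 1.35 (0.410 to 4.71), from 8 and 6 peaks.

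Windows of the length of the locus were then laid over the chromosomes, starting from the locus itself on chromosome 8. Among 2085 windows the locus ranked 14 by number of FBS peaks, 542 by DHT peaks and 1677 by CSS peaks, against window medians of 55 FBS, 14 DHT and 15 CSS peaks. No other window of chromosome 8 held more FBS peaks, the next having 177. Of 2039 windows with at least 5 CSS peaks, 12.3% had an FBS to CSS ratio of shares whose interval lay above 1, and the locus ranked 3 among them by that ratio. For DHT to CSS, 0.0981% of the windows, 2 in number, had such an interval, and the locus had the highest ratio of the 2039 windows. This rank depends on where the windows fall: with the grid moved by 0.7 Mb, the windows holding the parts of the locus before and after 128500000 had DHT to CSS ratios of 1.81 (0.810 to 4.25) and 1.44 (0.583 to 3.67), while their FBS to CSS ratios were 4.37 (2.38 to 8.94) and 3.75 (1.97 to 8.02). The window directly after the locus held 116 FBS, 7 DHT and 6 CSS peaks, and the window directly before it 99, 12 and 13, with FBS to CSS ratios of 5.85 (2.61 to 16.3) and 2.30 (1.29 to 4.48). The ratio of 6.02 in the locus was thus not particular to it.

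**Figure D1:**
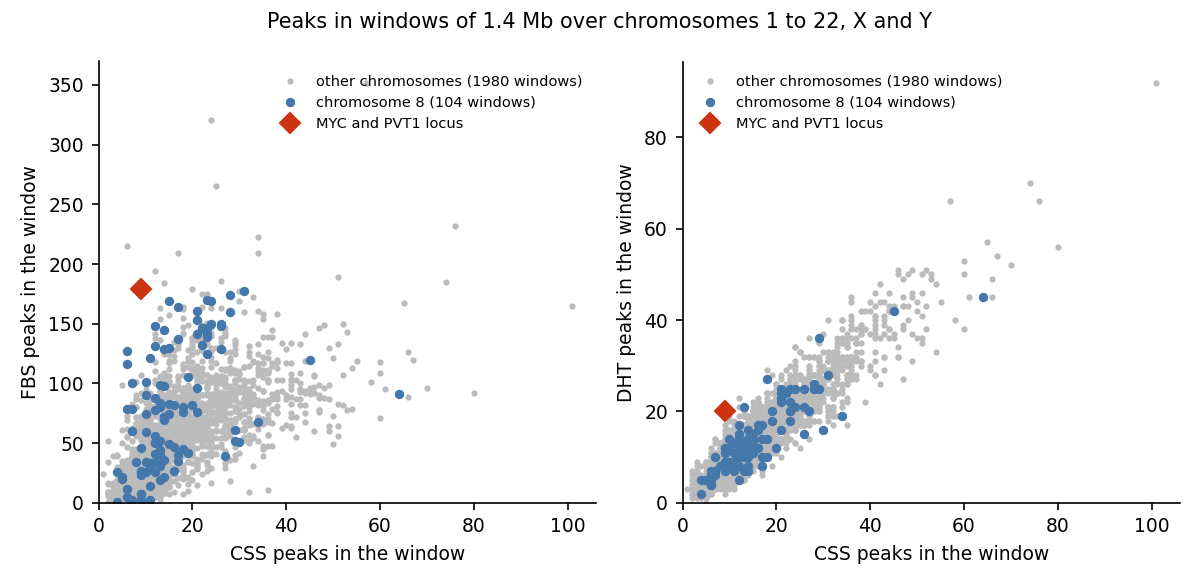
Number of FBS peaks (left) and DHT peaks (right) against the number of CSS peaks in 2085 windows of 1.4 Mb, each point a window. The locus (red diamond) had 9 CSS, 20 DHT and 179 FBS peaks and lies at the upper edge of both clouds.

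MYC itself carried peaks in CSS and in FBS and none in DHT. The CSS list had a peak from 128749978 to 128750203, 2.02 kb after the start of MYC, with 10 fragments at the summit against 1.78 expected (fold enrichment 3.96, −log10 q 2.90). A second CSS peak, from 128750656 to 128751218, had its summit 3.13 kb after the start, with 12 fragments against 1.76 expected (fold enrichment 4.71, −log10 q 4.41). Both were weak in their list, at percentiles 12.6 and 40.0 by q-value (0 the weakest, 100 the strongest). The second CSS peak overlapped an FBS peak from 128750578 to 128751261, whose summit was 41 bp away. That FBS peak had 49 fragments against 10.5 expected (fold enrichment 4.36, −log10 q 13.9) and stood at percentile 98.2 of the FBS list. FBS had a further peak at the start of MYC, from 128748304 to 128748744, with its summit 0.413 kb after the start and 34 fragments against 11.2 expected (fold enrichment 2.86, −log10 q 5.13). Before the start, FBS peaks from 128746202 to 128746416 and from 128738709 to 128738996 had summits 1.73 and 9.16 kb away, with 31 fragments against 9.89 expected and 18 against 2.77.

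The 10 kb around MYC was rich in fragments in both lists. It held 92 and 93 fragments at the CSS peaks, 6.89 and 6.96 times the genome background of that list. At the 2 FBS peaks in MYC it held 523 and 487 fragments, 8.69 and 8.09 times background. The nearest DHT summit to the start of MYC was 25.7 kb away, and the DHT list gives no value at MYC. At the DHT coverage, the 12 fragments of the stronger CSS peak would amount to 9.03, with an exact Poisson interval of 4.66 to 15.8, and 7 fragments would have been needed to reach the lowest −log10 p of the DHT list. For the weaker CSS peak the scaled number was 7.52 (3.61 to 13.8), again with 7 needed. Both values reached the number needed and both lower bounds fell short of it. The absence of these peaks from DHT is thus not shown to exceed counting error, and its cause was not tested.

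The start of PVT1 was the one place at either gene that all 3 lists shared. The CSS peak ran from 128806370 to 128806868 with 12 fragments at the summit against 0.802 expected (fold enrichment 7.21, −log10 q 7.998). In DHT it ran from 128806345 to 128806889 with 12 fragments against 0.772 expected (fold enrichment 7.34, −log10 q 8.01). The 2 peaks ranked almost alike in their lists, at percentiles 77.5 and 78.1. Their summits lay 0.382 and 0.509 kb before the rounded start of PVT1. FBS had a peak from 128806031 to 128806653 with 47 fragments against 7.89 expected (fold enrichment 5.399, −log10 q 17.03, percentile 99.0). A second FBS peak lay on its far side from 128806816 to 128807030, with 30 fragments and a summit 0.103 kb from the rounded start.

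Within the body of PVT1, over 306 kb, CSS had 0 peaks, DHT had 4 and FBS had 30. The DHT and FBS numbers come to 13.1 and 98.0 peaks per Mb, near the 10.8 and above the 40.1 of all chromosomes. With a −log10 q of at least 5 both CSS and DHT had 0, and with the gene extended by 5 kb on each side CSS had 1. The CSS peaks left a stretch of 324 kb without a summit, from 128806619 to 129131101, their longest in the locus. The 4 DHT peaks had 4 to 7 fragments at the summit and fold enrichments of 4.11 to 5.65, and none had a CSS partner. A pair of them, from 128866355 to 128866622 and from 128930033 to 128930230, overlapped FBS peaks with 30 and 19 fragments, and those from 129013245 to 129013442 and from 129043317 to 129043561 did not. The 30 FBS peaks in PVT1 had fold enrichments of 2.37 to 5.92 and a median percentile of 39.6, below the 72.7 of the 129 FBS peaks before MYC. By summit fragments the order was the opposite, with a median of 18 in PVT1 and 13 before MYC, while the 10 kb around the peaks held a median of 3.68 times the genome background in PVT1 and 1.15 times before MYC.

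**Figure D2:**
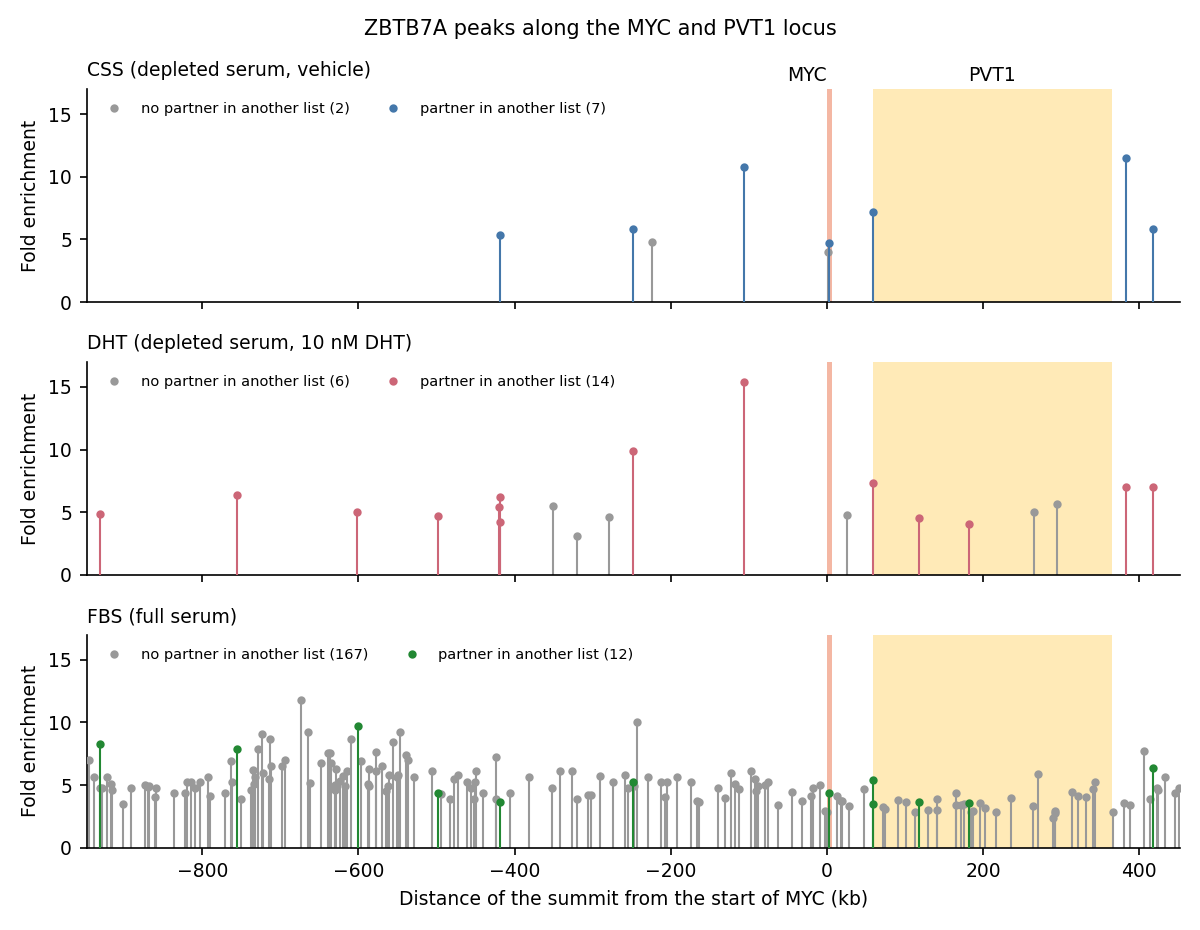
Fold enrichment of each peak (vertical lines with dots) by the distance of its summit from the start of MYC in kb, for CSS, DHT and FBS, with MYC and PVT1 shaded. Coloured peaks, 7 of 9 in CSS, 14 of 20 in DHT and 12 of 179 in FBS, overlap a peak of another list, and grey ones do not. Over the whole FBS list 17.2% of peaks do, and the same share of the whole CSS and DHT lists was not computed.

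The site with the highest −log10 q of the locus in CSS and the one with the highest in DHT both lay outside the genes, were shared by CSS and DHT, and had no FBS peak. The DHT peak from 128642298 to 128642685, 105.5 kb before MYC, had 26 fragments against 0.752 expected (fold enrichment 15.4, −log10 q 26.1) and ranked 63 in the whole DHT list. Its CSS partner, from 128642287 to 128642659, had 17 fragments against 0.669 expected (fold enrichment 10.8, −log10 q 15.1) and ranked 1970. The summits were 17 bp apart. FBS had no peak there. Scaled to the FBS coverage, the DHT fragments would amount to 175.3 (114.5 to 256.9) and the CSS fragments to 86.2 (50.2 to 138.1), with 13 and 10 needed. This scaling assumes that summit fragments grow in step with background coverage, which was not tested. Over whole lists the median summit had 8 fragments in CSS, 8 in DHT and 12 in FBS. From DHT to FBS, overlapping peaks went from 12 to 47 fragments at the start of PVT1 and from 18 to 8 at 128329368 to 128329653. The strongest CSS peak of the locus lay after PVT1, from 129130584 to 129131630, with 39 fragments against 2.48 expected (fold enrichment 11.5, −log10 q 28.03, rank 206). Its DHT partner from 129130548 to 129131624 had 20 fragments, a −log10 q of 10.3 and rank 3621, with its summit 55 bp away. FBS had no overlapping peak there either, its nearest summit being at 129128590. In all, 4 CSS and 10 DHT peaks of the locus had no FBS partner. Under the assumption above, the lower Poisson bound of their scaled fragments was set against the lowest −log10 p of the FBS list. It would have reached it for all 4 CSS peaks and for 9 of the 10 DHT peaks. Lacking an FBS partner is no trait of the locus. An FBS partner was present for 44.1% of the whole CSS list and 48.2% of the whole DHT list, against 5 of 9 and 10 of 20 here.

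The other sites called in all lists were 3, besides the start of PVT1. At 128499662 to 128499869 the CSS peak had 7 fragments, the overlapping DHT peak 12 (percentile 94.1) and the FBS peak 12, with fold enrichments of 5.87, 9.87 and 5.23. At 129165547 to 129165739 the fragments were 8 in CSS, 10 in DHT and 36 in FBS, with fold enrichments of 5.86, 6.99 and 6.39. The widest site, from 128327934 to 128329649 in CSS, 419 kb before MYC, was 1 peak of 1716 bp in CSS and 3 narrower peaks in DHT. It differed from the others in its 10 kb window. The window held 172 fragments in CSS, 12.9 times background, and 104 to 109 in DHT, 10.7 to 11.2 times background. Fragments of the peak itself were not separated from these counts. The FBS peak at this site had 8 fragments at the summit, a fold enrichment of 3.69 and a percentile of 5.25. Around it the 10 kb window held 67 fragments, 1.11 times background.

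Sharing between lists was then counted for all peaks of the locus, with an overlap of at least 1 bp. Of the 9 CSS peaks, 6 (66.7%, 29.9 to 92.5%) had a DHT partner, against 56.8% of the whole CSS list and 60.3% over the rest of 8q. Of the 20 DHT peaks, 8 (40.0%, 19.1 to 63.9%) had a CSS partner, against 63.9% of the whole DHT list and 69.0% over the rest of 8q. That interval lay below the share over the rest of 8q, and its upper end met the share of the list. With 9 CSS peaks for 20 DHT peaks, a low share was partly set by the counts. Of the 8 DHT peaks with a partner, 3 overlapped 1 CSS peak. With a −log10 q of at least 5 in both lists, 87.5% of the 8 DHT peaks left in the locus had a CSS partner. That share was not computed outside the locus, so it has no background and cannot be set beside the 63.9% and 69.0%. In the other direction, 6 of the 179 FBS peaks (3.35%, 1.24 to 7.15%) had a CSS partner, against 13.5% of the FBS list and 9.42% over the rest of 8q. A DHT partner was present for 11 (6.15%, 3.11 to 10.7%), against 13.3% and 8.88%, and a partner in either list for 12 (6.70%, 3.51 to 11.4%), against 17.2% and 11.4%. After merging overlapping peaks the locus held 188 regions, of 151256 in the whole series. Of the 188, 167 (88.8%) were seen in FBS alone, against 68.4% of all regions. DHT alone had 6 (3.19%, against 5.10%) and CSS alone 2 (1.06%, against 7.57%). A further 6 were in DHT and FBS (3.19%, against 2.61%) and 2 in CSS and DHT (1.06%, against 5.97%). CSS and FBS shared 1 (0.532%, against 2.69%), and 4 were in all lists (2.13%, against 7.67%).

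**Figure D3:**
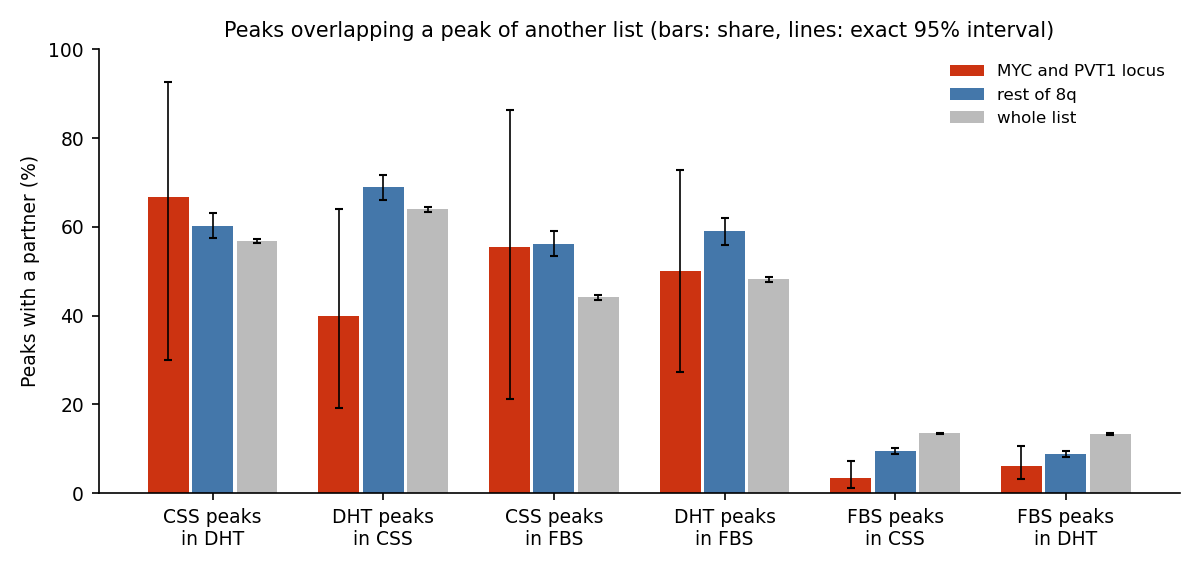
Percentage of peaks of 1 list that overlap a peak of another, for the locus (red), the rest of 8q (blue) and the whole list (grey), with exact 95% intervals as lines. In the locus 40.0% of DHT peaks had a CSS partner and 3.35% of FBS peaks did, against 69.0% and 9.42% over the rest of 8q. Both shares are limited by the 9 CSS peaks of the locus. With a −log10 q of at least 5 in both lists the share was 87.5% of 8 DHT peaks, not computed outside the locus.

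The DHT peaks without a CSS partner were mostly weak. These 12 peaks had 3 to 9 fragments at the summit, and 6 of them had an FBS partner. The strongest, from 127991884 to 127992081, had 9 fragments against 0.574 expected and a −log10 q of 5.95. At the CSS coverage the fragment numbers of 11 of the 12 would have reached the lowest −log10 p of the CSS list, but the lower Poisson bound did so for 1, the peak just named. For the other 11 the lower bound fell short. Their absence from CSS is thus not shown to exceed counting error, and its cause was not tested.

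FBS peaks were scaled to the lower coverage of the other lists by value alone, without a lower Poisson bound. The same untested assumption, that summit fragments grow in step with background coverage, applies. At the CSS coverage, with scaled fragments rounded down, 24 of the 179 FBS peaks (13.4%, 8.78 to 19.3%) would have reached the lowest −log10 p of the CSS list, against 5.14% of the whole FBS list and 5.56% over the rest of 8q. Of those 24, 3 had a CSS partner (12.5%, 2.66 to 32.4%), while 54.4% of such peaks did over the whole list and 49.6% (44.5 to 54.7%) over the rest of 8q. With 9 CSS peaks in the locus, few of the 24 could have a partner, so this contrast is not separate from the low CSS count. At the DHT coverage 14 FBS peaks remained, of which 3 had a DHT partner (21.4%, 4.66 to 50.8%), against 70.2% over the list and 75.0% (67.4 to 81.6%) over the rest of 8q. The 3 with a CSS partner were those in MYC, at the start of PVT1 and at 129165372 to 129165797. Before MYC lay 20 of the 24, and none lay within PVT1. The 5 FBS peaks of the locus with the highest −log10 q were among them. The highest, from 128035256 to 128035566, 713 kb before MYC, had 38 fragments against 3.48 expected (fold enrichment 8.70, −log10 q 21.96). Next came the peak from 128073833 to 128074326, with 26 fragments against the genome background of 1.29 (fold enrichment 11.8, −log10 q 20.9). The peak from 128504779 to 128505056 had 25 fragments against 1.59 (fold enrichment 10.0), that at the start of PVT1 is described above, and that from 128146734 to 128147126 had 23 against 1.46 (fold enrichment 9.75). Of these 5, 2 had a partner: the one at PVT1 in both other lists, and the last in DHT, where 5 fragments were seen.

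Along the locus, FBS peaks were present in each of 14 bins of 100 kb, with 7 to 25 per bin. The densest bin, 128100001 to 128200000, held 25, followed by the bin before it with 16 and by 127800001 to 127900000 and 128200001 to 128300000 with 15 each. DHT peaks fell in 12 bins, and the bins 128000001 to 128100000 and 128500001 to 128600000 had none. The most DHT peaks, 4 and 3, were in the bins 128300001 to 128400000 and 128400001 to 128500000. CSS peaks fell in 7 bins. None lay in the 5 bins from 127800001 to 128300000, where FBS had 84 peaks, nor in the 2 bins from 128900001 to 129100000. With 2 peaks each, the bins around MYC and at the end of the window were the fullest in CSS.

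**Figure D4:**
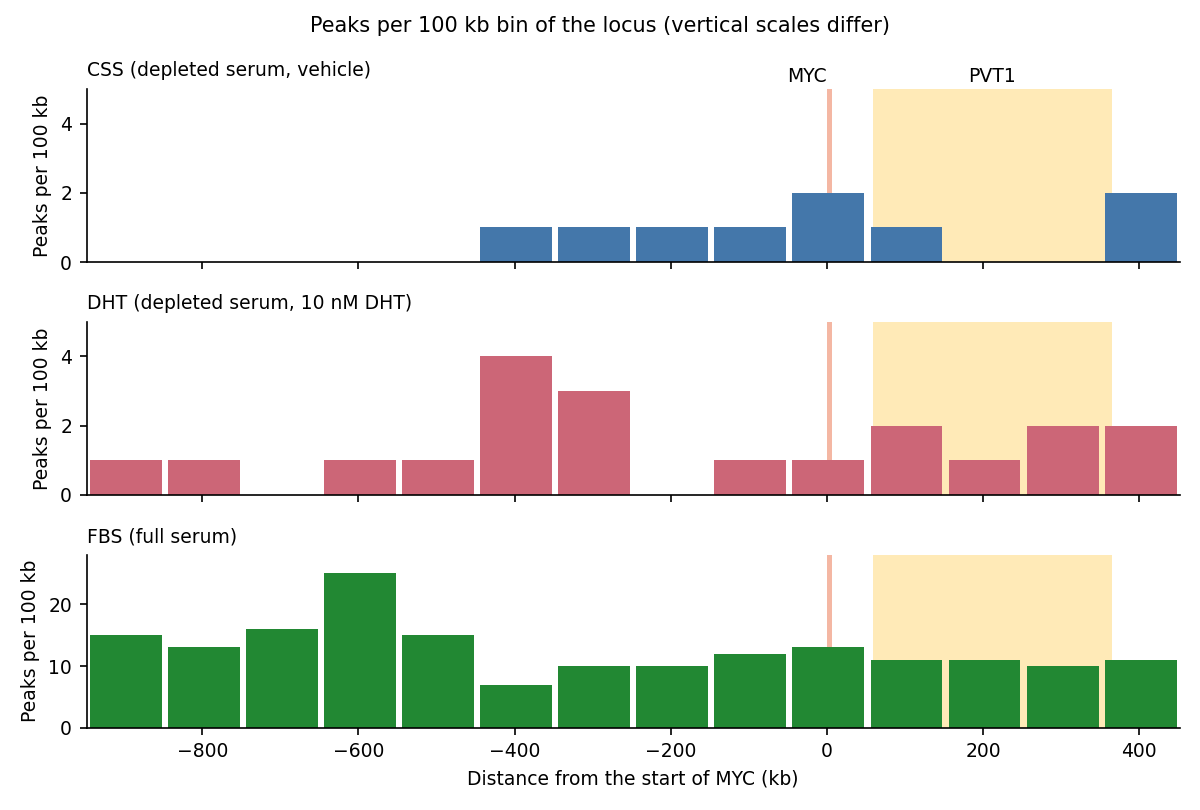
Number of peaks per 100 kb bin along the locus for CSS, DHT and FBS, by distance from the start of MYC in kb, with MYC and PVT1 shaded and vertical scales that differ. FBS has 7 to 25 peaks in each bin, and CSS has none in the 5 bins farthest before MYC.

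The strength of the peaks within their own lists also differed along the locus. By q-value the 179 FBS peaks had a median percentile of 68.5 (58.3 to 76.2), above the 56.1 (54.9 to 57.4) of the rest of 8q. With a −log10 q of at least 10 there were 23 FBS peaks (12.8%), against 5.11% over the rest of 8q and 4.85% over chromosomes 1 to 22, X and Y. The median percentile was 53.7 (27.9 to 94.8) for the 9 CSS peaks and 38.6 (18.3 to 72.4) for the 20 DHT peaks, intervals that include 55.5 and 56.8, the values of the rest of 8q. Median fold enrichment in the locus came to 5.86 for CSS, 5.21 for DHT and 4.92 for FBS, and each describes its own list only.

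Local coverage moved with position as well. Of the 129 FBS peaks before MYC, 22 had at least 2 times the genome background in the 10 kb around them, and 43 were at the background. Of the 30 in PVT1, 25 had at least 2 times, and none was at the background. The median was 1.15 times background before MYC, 3.37 between the genes, 3.68 in PVT1 and 2.36 after it. Over the locus 25.7% of FBS peaks were at the background, against 45.3% over the rest of 8q. The median of the 4 DHT peaks in PVT1 was 1.65. These values exist only where a peak was called and count all fragments, and their part in the number and fold of the FBS peaks was not tested.

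**Figure D5:**
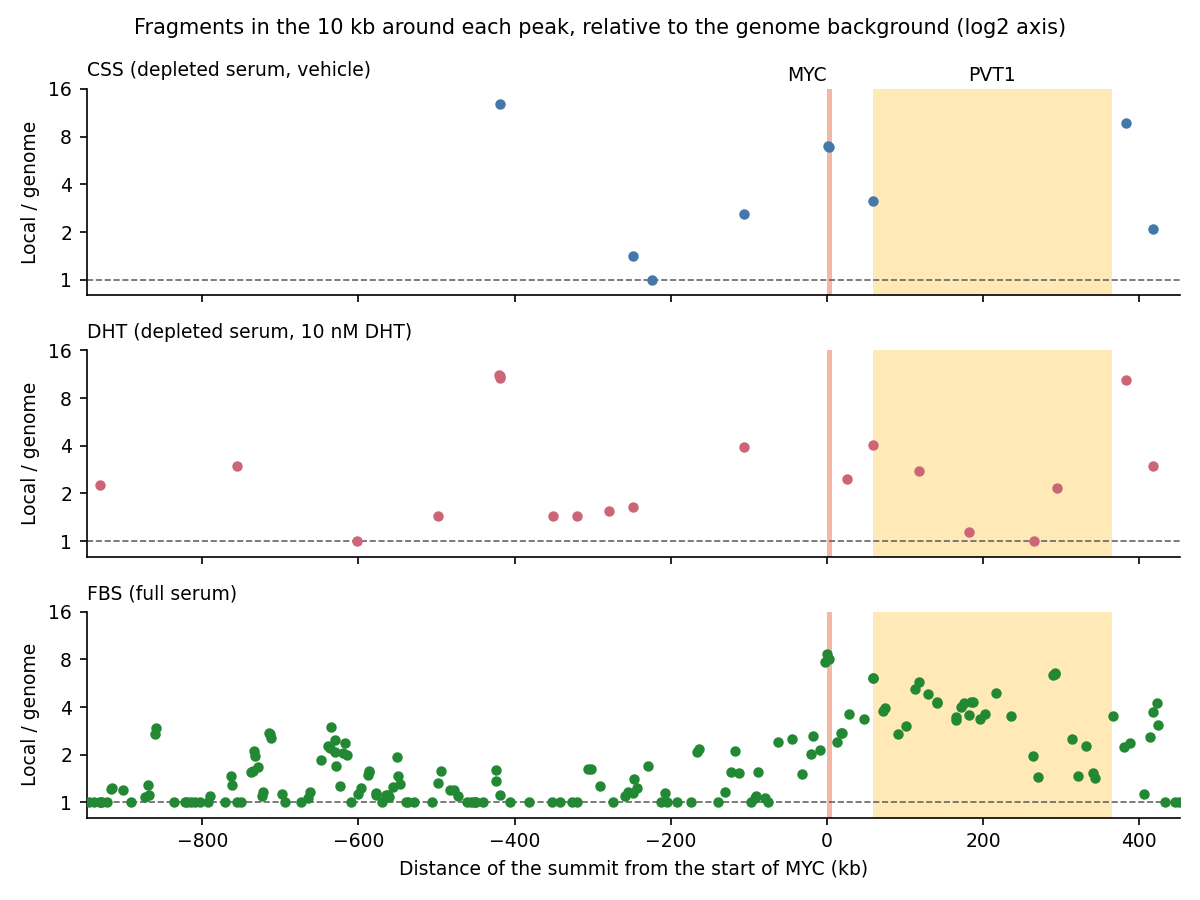
Fragments in the 10 kb around each peak divided by the genome background of its list (log2 axis, dashed line at 1), by distance of the summit from the start of MYC in kb. FBS peaks lie mostly near 1 before MYC and mostly above 2 from MYC through PVT1.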

How the data were processed

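ZBTB7A ChIP-seq peak lists of VCaP cells were used, 1 each for CSS (2 libraries), DHT (2) and FBS (1), per the labels. Per the submitters' processing notes, the authors used MACS2 2.0.10.20131216, BWA 0.7.2-r351 and SAMtools 0.1.18, with hg19. Not given in the sources used here were any control library, the thresholds and the way libraries were combined. Positions, fold enrichment (a ratio), −log10 p, −log10 q and score of each peak are as deposited, and rank peaks within a list only.

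Summit fragments k and the expected number λ were solved from fold = (k + 1)/(λ + 1) and p = P(Poisson(λ) > k), the formulas of the caller as known, not as stated by the sources. Steps of λ equalled the narrowest peak width (191, 198 and 215 bp) divided by 10000, with no scaling factor. Scaled numbers multiply k and λ by the ratio of genome backgrounds. They assume that summit fragments grow in step with background coverage, which was not tested. The arms of chromosome 8 were split at its longest stretch without a peak. Shares have Clopper-Pearson intervals, ratios of shares exact conditional binomial intervals and medians binomial intervals of order statistics. No test between conditions was made.

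The code, tested on simulated data, ran under Python 3.11.15 with scipy 1.17.1, pandas 2.3.3, matplotlib 3.10.9 and numpy 2.4.6. The members and lists were chosen with earlier results of these data known. Named peaks were those called in all lists, in MYC or within 10 kb of its start, nearest to the start of PVT1, and the 5 of each list with the highest −log10 q. Others were named after their values were seen. The recovery of fragments, local coverage and scaling were added after seeing the data. Gene positions on hg19 came with the definition of the locus.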

Additional observations from a re-analysis of the deposited data

How the results depend on the processing

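Alternatives gave 107 values, of which 81 lay inside the reported interval (for counts, inside 1.5-fold) and 26 lay outside. Direction was checked for the ratios of shares only, and none of these turned. The DHT list is unchanged by construction with equal numbers of top peaks and at the DHT coverage. A minimum −log10 q of 5 left 8 DHT and 102 FBS peaks in the locus, a minimum of 10 left 2 CSS, 3 DHT and 23 FBS peaks, and a fold enrichment of at least 5 left 12 DHT and 84 FBS peaks. Equal numbers of top peaks left 79 FBS peaks, and scaling to the DHT coverage, chosen after seeing the data, left 14. The FBS to CSS ratio of shares was 23.1 at the DHT coverage and otherwise 3.34 to 10.3. The FBS to DHT ratio was 4.55 and 5.04 at the 2 stricter q-values, 4.26 at the stricter fold, 9.70 at the DHT coverage and 1.35 as a share of 8q. The DHT to CSS ratio lay between 1.35 and 2.48, and its interval included 1 at each of the 3 stricter thresholds and with equal numbers of top peaks (2.22, 0.967 to 5.54). With a −log10 q of at least 5 in both lists, 100% of 6 CSS peaks had a DHT partner and 87.5% of 8 DHT peaks a CSS partner. Neither share was computed outside the locus. When the overlap had to cover 50% of both peaks, 15.0% of DHT peaks had an FBS partner, and 1.12%, 1.68% and 2.23% of FBS peaks had one in CSS, DHT or either. At a −log10 q of at least 5, MYC had 0 CSS peaks and PVT1 had 0 DHT and 7 FBS peaks, and with spans extended by 5 kb PVT1 had 1 CSS peak. In bins of 50 kb, 57.1% held a DHT peak. Fewer peaks and stricter overlap follow from the construction of these alternatives; beyond that the cause was not tested. No paired analysis was possible because each condition is represented by 1 list, and no library could be left out for the same reason. Fragment numbers of 3 to 12 at most CSS and DHT summits limit what their absence from another list can show.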

Other observations

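Every expected number of fragments at a summit that lay above the genome background was a whole number of fragments multiplied by the narrowest peak width over 10 kb, without a scaling factor, in each of the 3 lists (30488 CSS, 30862 DHT and 75699 FBS peaks). Whether a control library entered the peak calling was not tested.

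A site that differed from its neighbours in the locus was the 1716 bp CSS peak 419 kb before MYC. Its 10 kb surroundings held 12.9 times the genome background in CSS and up to 11.2 times in DHT. Fragments of the peak itself were not separated from these counts. In FBS the site had 8 summit fragments, and its 10 kb surroundings held 67 fragments, 1.11 times background. The site after PVT1 from 129130584 to 129131630 also had high surroundings in CSS (130 fragments, 9.74 times) and DHT (101 fragments, 10.4 times), while the nearest FBS peak, with its summit at 129128590, had 134 fragments around it, 2.23 times background.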
